A study of Glycine max with 12 samples.

Results

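VspA (GLYMA_07G014500) and VspB (GLYMA_08G200100) are the genes of the soybean vegetative storage proteins. They were followed by RNA sequencing of pods from plants kept under water deficit, heat or both. These 2 genes were taken by their IDs from the 57147 IDs of the deposited tables, with no threshold on their values. Both were listed in the table of read counts and in the table of FPKM (fragments scaled by gene length and by library size), and both passed the filter on low counts, as did 38737 genes in all.

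The plants were Glycine max of the cultivar Magellan, given a Bradyrhizobium japonicum inoculum and raised for 16 to 18 days to the first open flower under 12 h of light. At that stage they were assigned randomly to 4 chambers, 1 per condition. The cooler chambers ran at 28 °C in the day and 24 °C at night and held the control (watered with 100% of the water available to transpire) and the water deficit (watered with 30%). The hotter chambers ran at 38 °C in the day and 28 °C at night and held heat stress (100% of that water) and combined stress (30%). Each condition had 3 libraries, each from 10 to 15 pods pooled from 8 to 10 plants. Humidity was given as 50 to 60% for every library. Condition and chamber cannot be told apart, and pod wall and seed were not separated in the labels.

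Vegetative storage proteins are vacuolar glycoproteins in which soybean places nitrogen in leaves, stems and pod walls while seeds make little demand on it, and from which it is later withdrawn. They belong to the plant family of acid phosphatases, although storage is the role they are known for. In soybean leaves the genes are known to be induced by jasmonate, wounding, sugars and removal of pods, and to be held down by phosphate and auxin. VspA and VspB encode the alpha and beta subunits, which are close in sequence and assemble with themselves or with each other.

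Library totals ranged from 17310023 to 26591115 counts. Levels are given as CPM, counts scaled to the library total after TMM correction for composition, and changes as log2 changes from edgeR's quasi-likelihood test over all tested genes, called at a Benjamini-Hochberg adjusted p under 0.05. Water deficit replicate 2 correlated least with its group (Pearson r across genes of 0.885 with replicate 1). The edgeR changes of VspA and VspB, and the tested proportions, that rest on it are also given without it. The difference in proportion at low water alone, the correlations and the values of other IDs are mostly given with it only. The handling of reads that match both genes is not stated, so the split of counts between such close copies is uncertain. The SDs, and the p-values from libraries, reflect the spread between pooled samples.

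VspA was among the most abundant transcripts of every library. It stood at rank 1 of all IDs by count in 10 of the 12 libraries and at rank 2 in control replicates 2 and 3, and at rank 1 by FPKM in all 12. The control libraries held 9431, 6780.3 and 6191 CPM, and the water-deficit libraries 13023, 9456 and 10250.1. Heat-stress libraries held 23847, 16104 and 15891 CPM, and those of combined stress 13602, 13327 and 13062. The 4 groups followed each other without overlap, from control through water deficit and combined stress to heat stress. On 2 of the steps the gap was narrow, with the lowest water-deficit library 25.2 CPM above the highest control and the lowest combined-stress library 39.1 CPM above the highest water-deficit library. On the FPKM scale control and water deficit did overlap, since water deficit replicate 2 (11184 FPKM) lay below control replicate 1 (11478 FPKM). As means, control pods had 7467 ± 1726 CPM, water-deficit pods 10909.6 ± 1872.5, heat-stressed pods 18614 ± 4533 and pods under combined stress 13330.2 ± 270.3 (SD, n = 3 each).

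VspB, the beta subunit gene, followed temperature. The control libraries held 944, 442 and 403 CPM, and the water-deficit libraries 1198, 647 and 788. All libraries from the hotter chambers were far above these, with 8203, 4015 and 4323 CPM in heat stress and 5623, 5469.55 and 5137 in combined stress. The lowest of the 6 hot libraries (4015 CPM) thus exceeded the highest of the 6 others (1198 CPM). Control and water deficit overlapped, and so did heat and combined stress. As means, control pods had 596 ± 302 CPM, water-deficit pods 878 ± 286, heat-stressed pods 5514 ± 2334 and pods under combined stress 5409.8 ± 248 (SD, n = 3 each). By count VspB moved from ranks 49 to 187 of all IDs in control and 37 to 77 in water deficit to ranks 3 to 7 in heat stress and rank 4 in each combined-stress library.

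**Figure D1:**
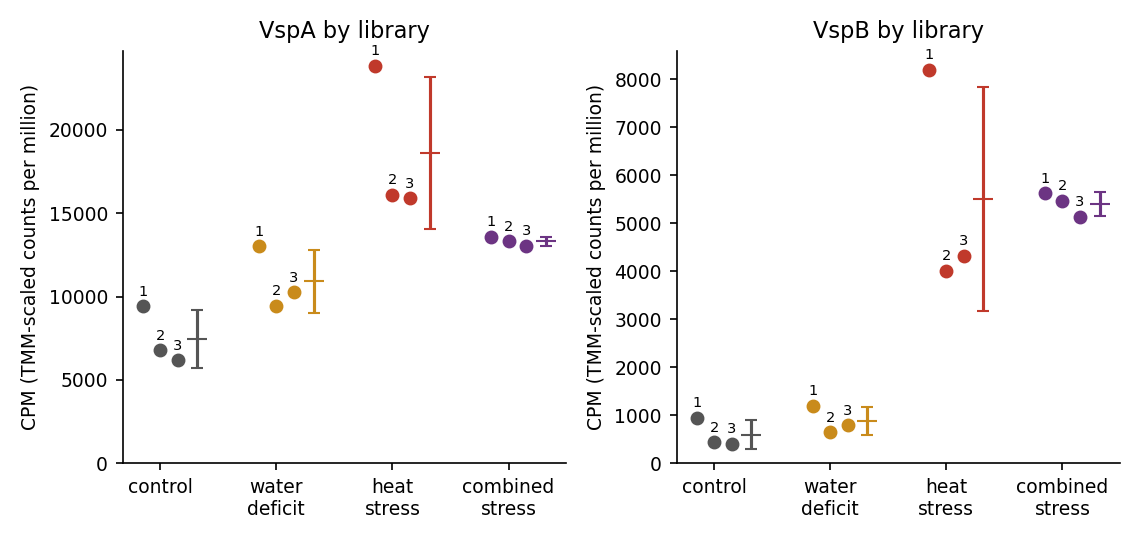
CPM of VspA (left) and VspB (right) in each of the 12 libraries, by group, on linear axes from 0. Points are libraries with their replicate number, and the bar beside each group is its mean ± SD (n = 3). VspB is at most 1198 CPM at the lower temperature and at least 4015 CPM at the higher, whereas the VspA groups lie closer together and heat stress is the highest.

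The first comparison asked what high temperature did to each gene at full water supply. Both rose in heat stress, VspA 2.49-fold (log2 change 1.32, SE 0.18, adjusted p = 0.000353) and VspB 9.24-fold (log2 change 3.21, SE 0.43, adjusted p = 0.00648). All 3 heat libraries were above all 3 control libraries for each gene. Among all tested genes, 1.13% were called higher in heat stress. A log2 change larger in size than that of VspB was found for 1.09% of tested genes, and than that of VspA for 6.57%. In absolute terms VspA gained 11147 CPM and VspB 4917 CPM, the largest and the next largest gains of mean CPM among the tested genes, a measure that favours abundant genes. In pooled pods, more cells of a type and more RNA per cell cannot be told apart.

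At low water supply the step from water deficit to combined stress shares no library with the step from control to heat stress. Here VspB rose 6.16-fold (log2 change 2.62, SE 0.42, adjusted p = 0.00347), in 3 of 3 libraries above all water-deficit libraries, and 5.25% of tested genes were called higher. Its gain of 4532 CPM was the largest among tested genes. VspA differed by a log2 change of 0.29 (95% interval -0.076 to 0.65, adjusted p = 0.304), which did not pass. Without water deficit replicate 2 the log2 changes were 2.46 for VspB (adjusted p = 0.0199) and 0.21 for VspA (adjusted p = 0.569).

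Averaged over both water supplies, the libraries at high temperature were above those at low temperature by a log2 change of 2.92 for VspB (SE 0.30, 7.55-fold, adjusted p = 0.000238) and of 0.80 for VspA (SE 0.12, 1.75-fold, adjusted p = 0.000248). Both genes were called higher, against 6.62% of tested genes. Both calls also held in every one of the 24 other settings tried, among them the fit without water deficit replicate 2 (log2 2.83 with adjusted p = 0.0011 for VspB, and 0.76 with adjusted p = 0.000798 for VspA). Of the 100 genes with the highest mean CPM, 25 were called higher and 32 lower at high temperature, and VspB had the third largest log2 rise of the 100, VspA the twelfth. That mean includes the hot libraries, which favours genes that rise there, VspB among them. The ranks are thus a description and no separate support for the rise.

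**Figure D2:**
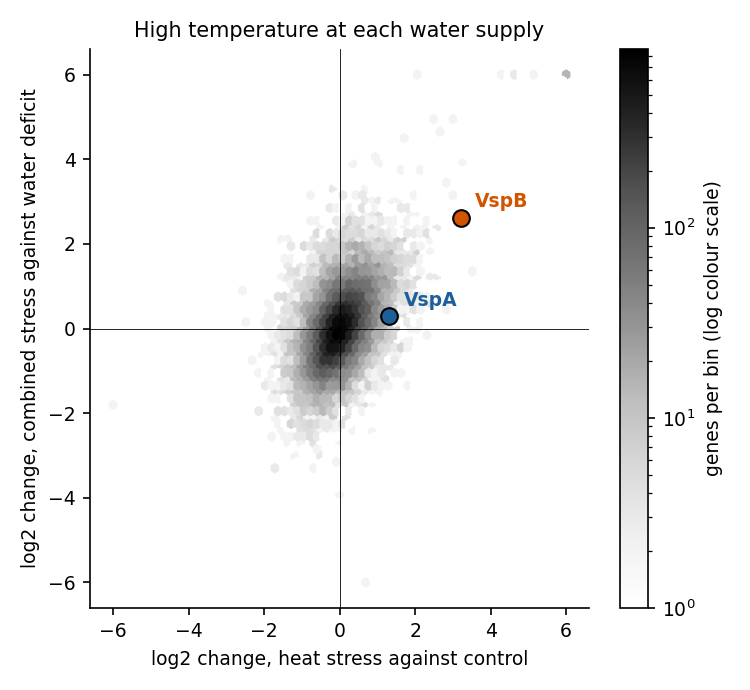
Log2 change in heat stress against control (x) and in combined stress against water deficit (y), which share no library, for the 33940 tested genes whose mean reached 1 CPM. Grey bins show the number of genes on a log colour scale, and values beyond 6 on either axis are drawn at 6. VspB lies far out in both directions (3.21 and 2.62), while VspA is at 1.32 on the x axis and 0.29 on the y axis.

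Water deficit alone was compared with control to ask whether low water supply changed storage protein transcripts. Neither gene was called, in a comparison in which 0.0955% of tested genes were called in either direction. The log2 changes were close to each other, 0.55 for VspA (95% interval 0.18 to 0.91, adjusted p = 0.734) and 0.56 for VspB (95% interval -0.33 to 1.45, adjusted p = 1). Before adjustment, edgeR's p was 0.00568 for VspA and 0.191 for VspB. Without water deficit replicate 2 the log2 changes were 0.64 and 0.73, again without a call. The sizes leaned on single libraries, since with 1 left out at a time they ran from 0.40 (without water deficit replicate 1) to 0.75 (without control replicate 1) for VspA, and from 0.26 to 1.05 without the same libraries for VspB, with no call in any of these fits. Averaged over both temperatures, low against full water gave 0.033 for VspA (95% interval -0.23 to 0.29, adjusted p = 0.938) and 0.26 for VspB (95% interval -0.36 to 0.89, adjusted p = 0.739), where 2.88% of genes were called in either direction. Without water deficit replicate 2 these were 0.090 and 0.36 (adjusted p = 0.805 and 0.634).

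Combined stress was then set against control and against heat stress. Against control both genes rose, VspB 9.07-fold (log2 change 3.18, SE 0.43, adjusted p = 0.00126) and VspA 1.79-fold (log2 change 0.84, SE 0.17, adjusted p = 0.00343), where 5.39% of tested genes were called higher. This comparison shares its control libraries with that of heat stress. Against heat stress, 5.25% of genes were called in either direction and neither gene was among them. VspB differed by a log2 change of -0.027 (95% interval -0.91 to 0.86, adjusted p = 0.984). VspA was lower in each combined-stress library than in each heat library, by a log2 change of -0.48 (95% interval -0.85 to -0.12, adjusted p = 0.125). The mean difference of -5284 CPM was the largest fall of any tested gene in that comparison. Much of its size came from heat stress replicate 1, without which the difference was -2667 CPM and the log2 change -0.26 (adjusted p = 0.446).

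The direction of the VspA difference with low water supply was thus opposite at the lower and at the higher temperature. Water-deficit libraries were all above control, and combined-stress libraries all below heat stress. Such a pattern, without overlap of CPM in either pair and with either order, was found for 0.896% of tested genes. The interaction, the test of that difference, gave a log2 value of -1.03 for VspA (SE 0.25, unadjusted p = 0.000574, adjusted p = 0.115), which did not pass, and 0.139% of genes were called. In 21 of the 24 alternatives the VspA interaction did not pass either, with the highest edgeR adjusted p of 0.406 without control replicate 2 (log2 -0.93). It passed without control replicate 1 (log2 -1.23, adjusted p = 0.0214) and with DESeq2 (log2 -1.01, adjusted p = 0.0155). For VspB the interaction was -0.58 (95% interval -1.84 to 0.67, adjusted p = 0.786). Without water deficit replicate 2 the interactions were -1.10 (adjusted p = 0.149) and -0.74 (adjusted p = 0.76).

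**Figure D3:**
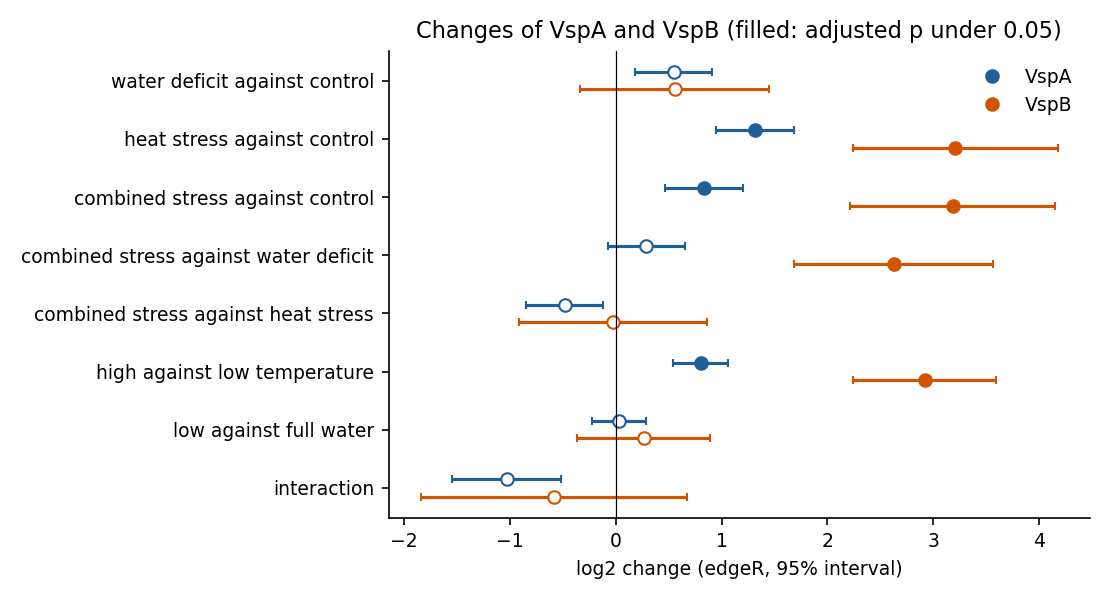
Log2 changes of VspA (blue) and VspB (orange) in the 8 comparisons, with 95% intervals from the edgeR fit, filled where the adjusted p was under 0.05. VspB exceeds VspA in each comparison that sets a high against a low temperature. The intervals for low against full water over both temperatures and for water deficit against control include 0, except that of VspA in water deficit (0.18 to 0.91). The VspA intervals for combined against heat stress (-0.85 to -0.12) and for the interaction (-1.55 to -0.51) also exclude 0. None of these VspA differences passed after adjustment.

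The proportion of the subunit genes to each other can be read within a library, where depth and scaling cancel. Control libraries had 9.99, 15.3 and 15.4 VspA counts per VspB count, and water-deficit libraries 10.9, 14.6 and 13.01. Under heat stress the quotients were 2.91, 4.01 and 3.68, and in combined stress 2.42, 2.44 and 2.54. Every library from a hot chamber was below every other library. On the log2 scale the mean was 1.55 ± 0.32 at high and 3.70 ± 0.27 at low temperature (SD, n = 6 each), a difference of -2.15, or a 4.43-fold lower proportion (exact permutation test, two-sided, p = 0.00216, the smallest that 6 against 6 allows, adjusted p = 0.0108 over 5 comparisons). This is also the test of whether temperature moved VspB more than VspA. The difference was -1.93 at full water (heat stress minus control) and -2.37 at low water (combined stress minus water deficit), in sets of libraries that do not overlap.

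For water supply the proportion was read within each temperature as well. Low against full water over both temperatures differed by -0.28 on the log2 scale (exact permutation p = 0.613, adjusted p = 0.766), in a test whose spread holds the whole temperature difference. At the lower temperature, water deficit overlapped with control and differed from it by -0.062 (exact permutation p = 0.8, adjusted p = 0.8). At the higher temperature, all combined-stress libraries lay below all heat-stress libraries, with a mean of 1.30 against 1.81, a difference of -0.51 (exact permutation p = 0.1, the smallest possible here, in a comparison added after the values were seen). Without water deficit replicate 2 the differences were -2.11 for temperature (exact permutation, adjusted p = 0.0216), -0.16 for water deficit against control, and -0.56 for low against full water, where the temperatures are then no longer balanced. For heat and for combined stress against control the groups did not overlap, and the exact permutation p of 0.1 (adjusted p = 0.167) is the smallest that 3 against 3 can give.

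**Figure D4:**
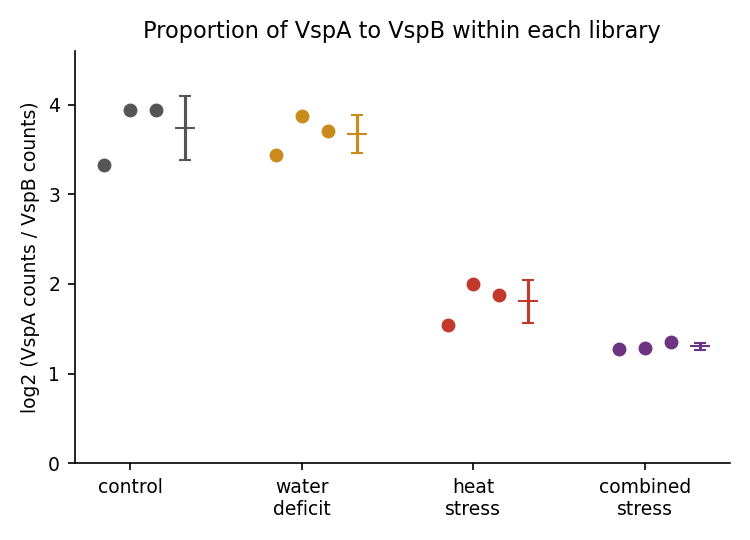
Log2 of VspA counts per VspB count within each of the 12 libraries, by group, with the mean ± SD beside the points (n = 3). The 6 libraries of the hotter chambers lie between 1.27 and 2.00, and the 6 others between 3.32 and 3.94.

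Per unit of gene length the proportion was somewhat higher. On the FPKM scale VspA was 11.9 to 18.4 times the level of VspB in control and 12.7 to 16.8 times in water deficit. Under heat stress it was 3.42 to 4.74 times that level, and under combined stress 2.84 to 2.98 times. VspA was therefore the higher of both genes in all 12 libraries. VspB made up 6.11 to 9.10% of the counts of both genes in control and 28.2 to 29.2% in combined stress. The gene length implied by counts and FPKM was 801 to 861 bases for VspA and 935 to 989 bases for VspB over the 12 libraries, a spread of 7.57% and 5.81%. Small differences therefore depended on the scale, as for VspA in control and water deficit, which overlapped in FPKM and not in CPM.

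Together the genes took a sizeable part of each library. Their summed share was 0.657 to 1.03% of all counts in control and 1.03 to 1.36% in water deficit. It was 1.97 to 3.05% in heat stress and 1.92 to 1.96% in combined stress. The highest share of VspA alone was 2.27% (95% Wilson interval 2.26 to 2.27%, heat stress replicate 1), and the lowest of VspB 0.0401% (0.0393 to 0.0410%, control replicate 3). Such intervals hold only the error of counting within a library and leave out the spread between libraries. The reads carry no molecular identifiers, so duplicate reads count as separate and the intervals may be too narrow.

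Within the groups the genes moved together. In each of the 4 groups replicate 1 was the highest library for VspA and for VspB, a pattern that 1.35% of tested genes showed. Departures of log2 CPM from the group mean correlated at a Pearson r of 0.990 over the 12 libraries, a description without a test, and those of VspB were 1.89 times as large as those of VspA (slope of VspB on VspA). Control replicate 1, for example, lay 0.36 above its group mean for VspA and 0.77 above it for VspB. The same libraries share their depth and scaling for both genes. Since VspB separates the libraries by temperature, levels were correlated within each temperature only. Each such set holds both water supplies, so r and rho mix differences between groups with departures of replicates. Their p-values do not test movement within the groups. At low temperature Pearson's r was 0.954 (n = 6, exact permutation p = 0.00833, adjusted p = 0.0333 over 4 values) and Spearman's rho 0.829 (exact permutation p = 0.0583, adjusted p = 0.117), with an r of 0.782 without control replicates 2 and 3, the libraries farthest from the median of VspA. At high temperature r was 0.581 (n = 6, exact permutation p = 0.25, adjusted p = 0.333) and rho 0.0857 (exact permutation p = 0.919, adjusted p = 0.919). There the value depended on the libraries kept, since r was -0.981 without heat stress replicate 1 and combined stress replicate 3. The group means there differed for VspA (18614 CPM in heat and 13330 in combined stress) and little for VspB (5514 and 5410).

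**Figure D5:**
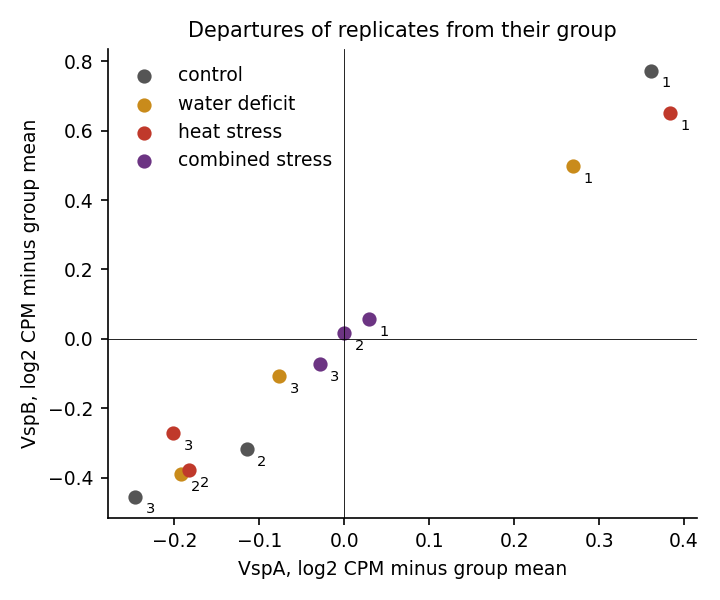
Departure of each library from its group mean in log2 CPM, for VspA (x) and VspB (y), with replicate numbers beside the points. Replicate 1 of control, water deficit and heat stress lies at the upper right, from 0.27 to 0.38 for VspA and from 0.50 to 0.77 for VspB, and the 3 combined-stress libraries lie near 0.

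Genes with a pattern like that of VspA or VspB were sought among the 33940 tested genes whose mean reached 1 CPM, by Pearson r of log2 CPM over the 12 libraries. The files pair no ID with a name, and none matched the gene table at hand, so these are given as IDs. The gene most like VspB was GLYMA_02G156800 (r = 0.994), with means of 208 ± 111 CPM (control), 260 ± 97.3 (water deficit), 3627 ± 1879 (heat stress) and 2699 ± 133 (combined stress, SD, n = 3 each). Next was GLYMA_07G200300 (r = 0.975), a gene of far lower level, at 1.99 ± 0.158 CPM in control and 44.7 ± 20.9 in heat stress (SD, n = 3 each). The gene most like VspA reached an r of 0.963. VspB was thirteenth in likeness to VspA, and VspA stood at rank 232 in likeness to VspB (r = 0.893). These values describe 12 libraries that share depth, group and scaling.

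In the RefSeq gene table (assembly Glycine_max_v4.0) VSPA is on chromosome 7 and VSPB on chromosome 8, the chromosomes that the IDs carry. The second gene after each is a member of the IQD family of calmodulin-binding proteins, IQD22 on chromosome 7 and IQD29 on chromosome 8. The 3 IDs on each side of each gene by ID number were also read. Of these 12, 2 had 0 counts in all libraries, and of the 10 tested, 1 was called higher and 3 lower at high temperature, against 6.62% and 8.94% of all tested genes. The one that rose is the ID next above VspB, from a mean of 29.6 CPM in control to 65.3 in heat stress (log2 change 1.14, edgeR adjusted p = 0.000931) and 89.3 in combined stress (log2 change 1.59, edgeR adjusted p = 8.06e-06). The ID next below VspB, at 168 CPM in control and 217 in heat stress, did not pass (log2 change 0.37, edgeR adjusted p = 0.638). The 2 IDs beside VspA had log2 changes of -0.32 and -0.39 in heat stress, and neither passed (edgeR adjusted p = 0.265 and 0.819). In combined stress against control both fell, with log2 changes of -0.47 and -2.16 (edgeR adjusted p = 0.0207 and 0.0118), where 8.56% of tested genes were called lower.

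Counts were also read for 11 IDs listed as seed storage globulins and 3 listed as seed lipoxygenases. These are assignments from general knowledge of soybean gene models and not from the files. Low counts of these IDs do not show that seed tissue was absent, and the amount of seed tissue in the pods was not tested. The summed globulin counts were 0 to 5 in the 9 libraries of control, water deficit and heat stress, and 28, 207 and 1429 in combined stress. Only 1 of the 11 passed the filter on low counts, and it had 0 counts in each control library and 1311, 172 and 26 in combined stress, a difference that was not called (edgeR adjusted p = 0.0861). Of the 3 lipoxygenase IDs, 2 were tested and 1 was called higher in combined stress against control (edgeR adjusted p = 0.00871, against 5.39% of tested genes). The called ID had 218, 94 and 56 counts in combined stress and at most 20 in any other library. Like the tested globulin, it passed the filter only through the combined-stress libraries. Tests of combined stress on these IDs are therefore not independent of how they were admitted, and they are no support. That ID was also called against water deficit (edgeR adjusted p = 0.0234), where the list had no call without water deficit replicate 2, and not against heat stress (edgeR adjusted p = 0.101). The summed lipoxygenase counts were 0 to 26 outside combined stress and 56 to 335 within it. The summed counts of both lists were thus highest in the combined-stress libraries, with 0 globulins and 1 lipoxygenase called against control, and their part in the levels of VspA and VspB was not tested.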

How the data were processed

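Whole-pod RNA of 12 libraries was sequenced as paired reads on a NovaSeq 6000, per the labels. The authors deposited read counts per gene, and FPKM values per gene, with 1 column per library. HISAT2 2.2.1 is named in the submitters' processing notes. The counting tool, strand setting, annotation and build are not given in the sources used here. Groups and replicate numbers come from the sample titles.

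The deposited counts were tested with edgeR 4.0.16 in R 4.3.3 (quasi-likelihood, robust, TMM, filter by group), with 1 fit of 4 group means and Benjamini-Hochberg adjustment over the 38737 genes tested in each of 8 comparisons. SE is the log2 change divided by the square root of F, which is approximate. The proportion of VspA to VspB was tested by exact permutation (scipy 1.17.1). The scripts were tested on simulated counts. Replicates differed by more than counting noise (chi-square per degree of freedom 9.74 to 38.3).

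Alternatives were DESeq2 1.42.0, limma 3.58.1 (voom, and log2 FPKM with a pseudocount of 1 or 0.1), other scalings and filters, a replicate block, and each library left out in turn. Further alternatives were a stricter cutoff on the main fit (adjusted p under 0.01) and fits of only the groups compared. The genes named beside VspA and VspB were their 3 neighbours in ID number on each side and the genes with the highest Pearson r, of which the first 2 over both genes are printed by ID. VspA and VspB were fixed by ID, and they and the lists were chosen with earlier results of these data known. Lists by product name (acid phosphatases, lipoxygenases, jasmonate genes) could not be matched, since 0 IDs matched the gene table at hand, and sequences and promoter motifs were not used here. Coordinates are not given, because the build of the files is not stated.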

Additional observations from a re-analysis of the deposited data

Results flagged for a closer look

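The difference of VspA between low and full water supply had opposite directions at the lower and the higher temperature. Neither difference was called (edgeR adjusted p = 0.734 for water deficit against control and 0.125 for combined against heat stress). All water-deficit libraries were above all control libraries and all combined-stress libraries below all heat-stress libraries in CPM, with a log2 interaction of -1.03 (edgeR adjusted p = 0.115). The test of the difference did not pass, and over the 24 alternatives its adjusted p ranged from 0.0155 to 0.406. On the FPKM scale control and water deficit overlapped by 1 library.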

How the results depend on the processing

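In every alternative run, VspA and VspB stayed higher and called in heat stress and in combined stress against control, and at high against low temperature, as did VspB in combined stress against water deficit. Their log2 changes ranged from 1.09 to 1.52 (VspA) and 2.80 to 3.70 (VspB) for heat stress, and from 0.73 to 1.04 and 2.98 to 3.68 for combined stress. The proportion of VspA to VspB at high against low temperature ranged from -2.24 to -2.09. For the changes that follow, the cause was not tested. The uncalled difference of VspB between combined and heat stress turned positive with library size alone (0.069), with the 10 most abundant genes out of the scaling (0.0027), with limma-voom (0.043) and with limma on FPKM (0.14 with either pseudocount or no filter), and from -0.19 to 0.38 with 1 library left out. Same-numbered libraries did not deviate together over all genes (mean correlation -0.014, from -0.22 to 0.14 over 18 pairs), so the numbers were not taken as pairs. With the replicate number as a block, that VspB difference was 0.080, VspA passed for combined against heat stress (-0.45, adjusted p = 0.0401) and for the interaction (-1.005, adjusted p = 0.0343), and no other call for these genes changed. The VspA interaction also passed with DESeq2 (-1.01) and ranged from -1.23 to -0.80 with 1 library left out. Uncalled values near 0 also changed sign when 1 library was left out, namely low against full water for VspA (-0.040 to 0.14) and the proportion in water deficit against control (-0.27 to 0.052). Numbers of genes called over the alternatives ranged from 3 to 123 for water deficit (main 37), 265 to 1473 for heat stress (734), 2709 to 9190.0 for combined stress (5403), 2456 to 6637 for combined stress against water deficit (5207), 548 to 3139 against heat stress (2032), 3061 to 7234 for temperature (6030.0), 371 to 1939 for water supply (1114) and 0 to 483 for the interaction (54). The lower ends of 3, 2709, 2456, 3061 and 371 came from the stricter cutoff (adjusted p under 0.01) on the unchanged main fit. They are thus no effect of the processing. The 9190.0 came from fitting only the groups compared.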

Other observations

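The spread of VspA between replicates differed by group. As a share of all counts, its coefficient of variation was 22.9% in control, 13.7% in water deficit and 21.9% in heat stress, against 0.238% in combined stress, the lowest of the 100 genes with the highest mean CPM there (median 7.88%). The shares in the 3 combined-stress libraries were 1.384%, 1.385% and 1.379%, and their 95% Wilson intervals overlapped. After TMM scaling the coefficient was 2.03%, the sixth lowest of the 100 (median 8.34%). For VspB it was 4.59% in combined stress and from 32.6 to 50.6% in the other groups on that scale, where it was among the more variable of the 100 genes. With 3 libraries per group these spreads are descriptions and were not compared by a test.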
